A study of Mus musculus with 6 samples.

Results

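A set of 10 genes that write, maintain or oxidise DNA methylation, or form the core of Polycomb repressive complex 2 (PRC2), was followed in mouse hematopoietic stem cells with and without Mcph1. They were Dnmt1, Uhrf1, Dnmt3a, Dnmt3b, Tet2, Tet3, Ezh1, Ezh2, Eed and Suz12. They were found by gene symbol, and all 10 are among the 11108 genes of the expression table. RNA-seq libraries came from 3 WT samples and 3 Mcph1-/- samples, each of 200 bone marrow cells that lacked lineage markers and CD34 and carried Sca-1, c-Kit and CD150. No treatment was given in either group. The sources used here do not give mouse age or strain, the deleted part of Mcph1, or whether replicates were separate mice. The p-values therefore speak of variation among the libraries themselves, part of which could be technical.

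DNA methylation at CpG sites is copied onto new DNA by DNMT1, which UHRF1 brings to freshly replicated, half-methylated DNA. DNMT3A and DNMT3B set methylation on unmethylated DNA, and the TET enzymes oxidise methylcytosine as a step towards its removal. PRC2 methylates lysine 27 of histone H3, a mark of silenced genes. EZH1 or EZH2 is its catalytic subunit, while EED and SUZ12 are needed for activity and stability. In blood stem cells, loss of DNMT3A or TET2 is known to favour self-renewal over differentiation, and EZH2 is known as the form of the enzyme typical of dividing cells, with EZH1 prominent in resting ones.

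The start sites of these genes lie mostly in CpG-rich DNA. RefSeq promoter windows, from 250 bases before to 50 bases after an annotated start (build GRCm38.p6, the assembly of mm10), were found for all 10 genes, 15 windows in all. They held between 2 and 57 CpG dinucleotides, with 14 of 15 above the median of 7 over all 32851 windows. The window with 2 was the most upstream of 3 Dnmt1 starts. Windows were also searched on both strands for 4 spellings of the E2F-type site, the element of many S phase genes (TTTCCCGC, TTTCGCGC, TTTGCCGC and TTTGGCGC). One window each of Dnmt1, Uhrf1, Ezh2 and Suz12 held a match, against 2.26% of all windows and 5.06% of those with at least 30 CpG dinucleotides. No matches overlapped. The 4 windows are shown because they hold the matches, which are in capitals, and each runs 5′ to 3′ on the strand of the gene.
Dnmt1, chr9:20952574-20952873, minus strand: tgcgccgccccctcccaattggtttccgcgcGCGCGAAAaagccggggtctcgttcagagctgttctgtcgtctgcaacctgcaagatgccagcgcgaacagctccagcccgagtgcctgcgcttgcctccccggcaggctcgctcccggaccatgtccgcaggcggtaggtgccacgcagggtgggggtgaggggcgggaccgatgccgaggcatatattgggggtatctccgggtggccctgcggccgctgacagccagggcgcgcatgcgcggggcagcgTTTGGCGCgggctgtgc
Uhrf1, chr17:56304063-56304362, plus strand: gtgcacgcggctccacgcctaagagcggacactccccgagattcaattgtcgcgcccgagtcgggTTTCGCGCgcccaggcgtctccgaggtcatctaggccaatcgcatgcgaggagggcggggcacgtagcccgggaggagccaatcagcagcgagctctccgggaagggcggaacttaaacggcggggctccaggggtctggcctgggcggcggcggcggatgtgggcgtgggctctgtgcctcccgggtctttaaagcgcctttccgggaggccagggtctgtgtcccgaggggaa
Ezh2, chr6:47594981-47595280, minus strand: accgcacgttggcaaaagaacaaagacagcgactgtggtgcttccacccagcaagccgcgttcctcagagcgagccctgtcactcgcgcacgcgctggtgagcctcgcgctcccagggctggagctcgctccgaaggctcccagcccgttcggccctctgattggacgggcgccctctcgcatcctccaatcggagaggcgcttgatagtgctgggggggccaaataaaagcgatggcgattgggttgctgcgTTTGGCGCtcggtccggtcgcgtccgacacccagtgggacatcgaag
Suz12, chr11:79992856-79993155, plus strand: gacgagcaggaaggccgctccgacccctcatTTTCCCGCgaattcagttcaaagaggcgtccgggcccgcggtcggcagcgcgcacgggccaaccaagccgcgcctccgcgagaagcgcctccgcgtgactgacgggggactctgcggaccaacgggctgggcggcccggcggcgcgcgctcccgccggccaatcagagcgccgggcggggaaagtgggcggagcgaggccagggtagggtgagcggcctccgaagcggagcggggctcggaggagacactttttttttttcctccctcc
In the Dnmt1 window a match on the other strand begins 219 bases before the start and one on the gene strand begins at base 34 after it. The match begins 185 bases before the start in Uhrf1, 219 bases before it in Suz12 and at base 4 after it in Ezh2. A match describes letters only, and no binding was measured.

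None of the 10 genes differed between the genotypes past the threshold. By limma on log2(normalised read count + 1), with p-values adjusted over 10846 tested genes, 0 of 10 passed in either direction, where 4 genes, or 0.0369%, passed over all. The smallest adjusted p among the 10 was 0.708 (Uhrf1). At an unadjusted limma p under 0.05 the count was also 0 of 10, where 7.71% of tested genes passed. edgeR, DESeq2 and limma-voom on the recovered reads called 0 of 10 as well. By estimate 4 genes were higher in Mcph1-/- (Dnmt1, Uhrf1, Eed and Suz12) and 6 lower. Their median log2 fold change was -0.31, against 0.08 over all tested genes. Ezh2 was the only one of the 10 whose libraries did not overlap between genotypes, as was found for 14.2% of tested genes in either direction.

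**Figure D1:**
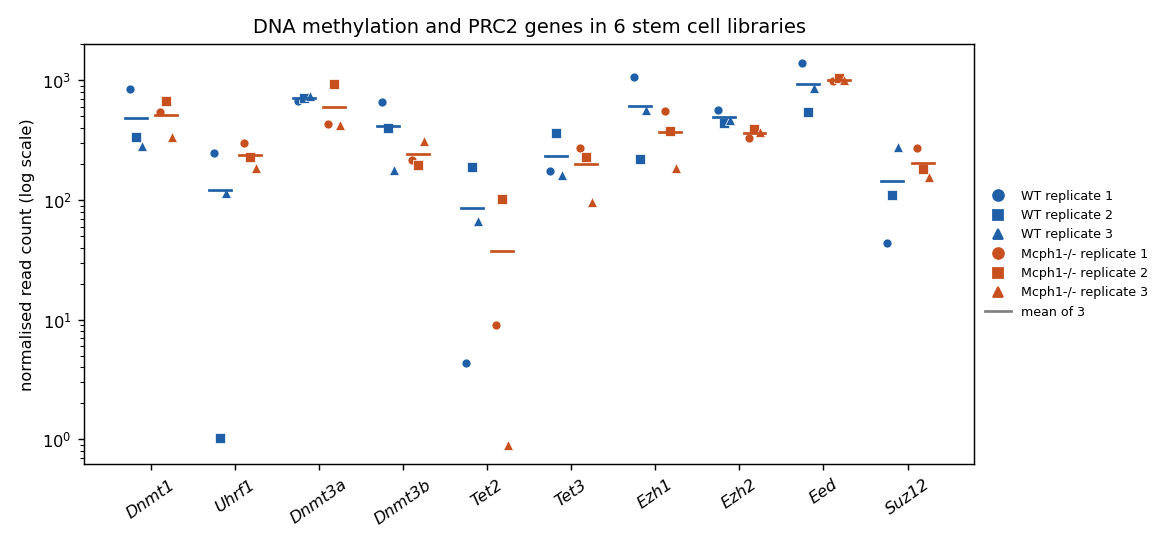
Normalised read count (log axis) of each gene in the 6 libraries. Points are libraries, shaped by replicate number and coloured by genotype, and bars are means of 3. Only for Ezh2 do the Mcph1-/- libraries (332 to 394) all lie below the WT libraries (443 to 566); Uhrf1 and Tet2 each have libraries near 1.

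For the maintenance pair, both genes overlapped between genotypes, and 1 WT library held almost no Uhrf1 reads. Dnmt1, the maintenance methyltransferase (ENSMUSG00000004099, minus strand of chromosome 9, 20907209 to 20959888 in mm10), had a normalised read count, meaning reads divided by the size factor of the library, of 842, 334 and 285 in WT replicates 1 to 3. In Mcph1-/- replicates 1 to 3 it stood at 548, 668 and 337. WT replicate 1 was the highest of the 6 and the Mcph1-/- libraries lay within the WT range. The means were 487 ± 308 in WT and 518 ± 168 in Mcph1-/- (SD, n = 3), and the log2 fold change, taken as Mcph1-/- over WT, was 0.21 (SE 0.53, 95% interval -1.02 to 1.43; limma adjusted p = 0.935). Its sign turned without WT replicate 3 (-0.09) and without Mcph1-/- replicate 2 (-0.01).

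Uhrf1, the reader of half-methylated DNA that recruits DNMT1 (ENSMUSG00000001228, plus strand of chromosome 17, 56303321 to 56323486), had 248, 1.03 and 114 in WT and 298, 229.7 and 184 in Mcph1-/-. WT replicate 2 held 1 Uhrf1 read, worth 1.03 (exact Poisson 95% interval 0.0261 to 5.74, counting error only), while the same library held 324 reads of Dnmt1. The groups overlapped, since WT replicate 1 lay above 2 of the Mcph1-/- libraries. The means were 121 ± 124 and 237 ± 57.6 (SD, n = 3), a ratio of 1.96. The log2 fold change was 2.59 (SE 1.78, 95% interval -1.50 to 6.69; limma adjusted p = 0.708). It was 0.46 without WT replicate 2, 1.57 with a pseudocount of 16 and 0.97 by DESeq2. Per library, the Uhrf1 to Dnmt1 ratio of normalised read counts was 0.295, 0.00309 and 0.401 in WT and 0.544, 0.344 and 0.546 in Mcph1-/-, so that these ratios overlapped as well. RNA from fewer cells that express a gene and less RNA per cell cannot be told apart in libraries of 200 pooled cells.

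Both de novo methyltransferase genes had lower means in Mcph1-/-, with overlapping libraries. Dnmt3a (ENSMUSG00000020661, plus strand of chromosome 12, 3806007 to 3914443), a gene often mutated in clonal blood disorders, read 672, 708 and 744 in WT and 429.7, 927 and 426 in Mcph1-/-. The WT libraries were close to each other, while the Mcph1-/- libraries lay on both sides of them, 2 below and 1 above. The means were 708 ± 35.8 and 594 ± 288 (SD, n = 3), and the log2 fold change was -0.35 (SE 0.40, 95% interval -1.27 to 0.56; limma adjusted p = 0.812). Its exons share 133 bases with the antisense gene Dnmt3aos, and reads of the pair cannot be told apart there.

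Dnmt3b (ENSMUSG00000027478, plus strand of chromosome 2, 153649450 to 153687730), the other de novo enzyme, read 660.4, 403 and 179 in WT and 214, 195 and 312 in Mcph1-/-. WT replicate 3 was the lowest of all 6, below each Mcph1-/- library, and WT replicates 1 and 2 were the highest. The means were 414 ± 241 and 240.4 ± 62.4 (SD, n = 3), and the log2 fold change was -0.62 (SE 0.63, 95% interval -2.06 to 0.82; limma adjusted p = 0.789). It ranged from -1.13 without WT replicate 3 to -0.19 without WT replicate 1. The Dnmt3b to Dnmt3a ratio was 0.982, 0.569 and 0.241 in WT and 0.499, 0.211 and 0.732 in Mcph1-/-, with no separation of the genotypes.

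Tet2, a dioxygenase gene often lost in myeloid disease (ENSMUSG00000040943, minus strand of chromosome 3, 133463679 to 133545139), had the largest coefficient of variation of the 10 in both genotypes (108% in WT and 150.5% in Mcph1-/-). It stood at 4.34, 188 and 66.8 in WT and at 9.12, 103 and 0.893 in Mcph1-/-. These values rest on 4, 182 and 66 reads in WT and on 10, 125 and 1 in Mcph1-/-. Each genotype thus had at least 1 library at 10 reads or fewer and 1 with over 100. The means were 86.2 ± 93.1 and 37.5 ± 56.5 (SD, n = 3), and the log2 fold change was -1.70 (SE 2.12, 95% interval -6.56 to 3.16; limma adjusted p = 0.834). It was -0.34 without Mcph1-/- replicate 3, -0.60 without WT replicate 2, -3.17 without WT replicate 1 and -3.22 without Mcph1-/- replicate 2, and it was -0.92 with a pseudocount of 16. Its exons share 43 bases with the antisense gene Gm42567.

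Tet3, the other TET enzyme of the set (ENSMUSG00000034832, minus strand of chromosome 6, 83362373 to 83459084), read 175, 365 and 162 in WT and 271, 231 and 95.5 in Mcph1-/-. WT replicate 2 was highest and Mcph1-/- replicate 3 lowest, with the other 4 between. The means were 234 ± 114 and 199 ± 91.8 (SD, n = 3), and the log2 fold change was -0.26 (SE 0.74, 95% interval -1.96 to 1.44; limma adjusted p = 0.942). The sign turned without WT replicate 2 (0.11) and without Mcph1-/- replicate 3 (0.20). Tet3 had more reads than Tet2 in all 6 libraries, with a Tet3 to Tet2 ratio between 1.95 and 107. These genes have similar exon lengths of 16695 and 16870 bases.

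Within PRC2, Ezh2 was lower in each Mcph1-/- library than in any WT library. Ezh2, the catalytic subunit (ENSMUSG00000029687, minus strand of chromosome 6, 47530139 to 47595341), had a normalised read count of 566, 443 and 465 in WT and 332, 394 and 368 in Mcph1-/-. The means were 491 ± 65.7 and 365 ± 31.0 (SD, n = 3), 25.8% lower in Mcph1-/-. Libraries that do not overlap were found for 6.8% of all tested genes in this direction and 14.2% in either, so 1 of 10 is near the background. The log2 fold change was -0.42 (SE 0.39, 95% interval -1.31 to 0.46; limma adjusted p = 0.766). The two-sided exact permutation p was 0.1, the smallest that 3 against 3 libraries allow, unadjusted, for a gene singled out after its values were seen. The fold change stayed between -0.49 and -0.32 in all 14 alternative analyses, and the libraries remained apart when scaled by total reads. Ezh2 shares 174 exonic bases with the opposite-strand gene Gm26625.

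Ezh1, the alternative catalytic subunit (ENSMUSG00000006920, minus strand of chromosome 11, 101191115 to 101226463), read 1062, 218 and 561 in WT and 554, 381 and 187 in Mcph1-/-. Both genotypes had libraries near 200, and WT replicate 1 stood highest. The means were 614 ± 424 and 374 ± 184 (SD, n = 3), and the log2 fold change was -0.57 (SE 0.68, 95% interval -2.13 to 0.99; limma adjusted p = 0.825). It was -0.04 without WT replicate 1 and -1.18 without WT replicate 2. The Ezh2 to Ezh1 ratio was 0.533, 2.03 and 0.829 in WT and 0.60, 1.03 and 1.97 in Mcph1-/-, so each genotype held a library with Ezh1 ahead of Ezh2 by read count and one with Ezh2 ahead. The spread of this ratio came more from Ezh1, whose highest library exceeded its lowest 4.86-fold in WT and 2.97-fold in Mcph1-/-, than from Ezh2 (1.28-fold and 1.19-fold).

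The noncatalytic core subunits had higher means in Mcph1-/-, again with overlap. Eed, which binds the methylated histone product (ENSMUSG00000030619, minus strand of chromosome 7, 89954654 to 89980983), read 1396, 541 and 869.5 in WT and 981, 1043 and 1017 in Mcph1-/-. The Mcph1-/- libraries were nearly equal and lay inside the WT range. The means were 935 ± 431 and 1014 ± 31.5 (SD, n = 3), and the log2 fold change was 0.22 (SE 0.37, 95% interval -0.62 to 1.07; limma adjusted p = 0.882), which turned to -0.12 without WT replicate 2. Eed shares 261 exonic bases with the opposite-strand gene E230029C05Rik.

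Suz12, which holds the complex together (ENSMUSG00000017548, plus strand of chromosome 11, 79993106 to 80034123), read 43.4, 111 and 276 in WT and 275, 180.5 and 156 in Mcph1-/-. WT replicates 1 and 2 were the lowest and WT replicate 3 the highest of the 6. The means were 144 ± 120 and 204 ± 62.5 (SD, n = 3), and the log2 fold change was 0.84 (SE 0.93, 95% interval -1.29 to 2.96; limma adjusted p = 0.808). It was 0.17 without WT replicate 1 and 1.49 without WT replicate 3. The Suz12 to Eed ratio ran from 0.0311 to 0.318 in WT and from 0.154 to 0.280 in Mcph1-/-. Suz12 shares 178 exonic bases with the opposite-strand gene Gm26563.

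**Figure D2:**
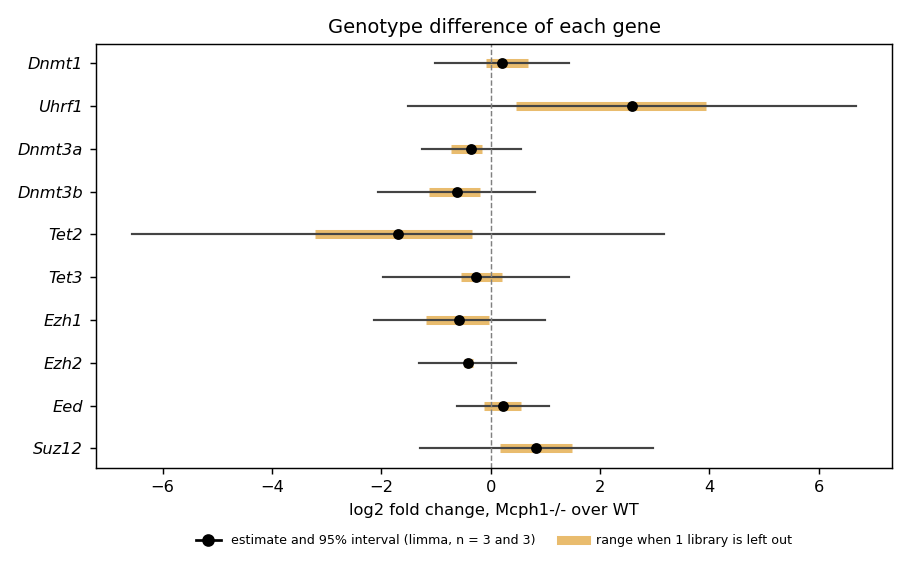
Log2 fold change (Mcph1-/- over WT) of each gene. Points and thin lines are limma estimates with 95% intervals from 3 against 3 libraries, and thick bands give the range when any 1 library is left out. Every interval includes 0, from the narrow ones of Eed and Ezh2 (-1.31 to 0.46 for Ezh2) to that of Tet2 (-6.56 to 3.16).

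Per exon length, Eed was the most and Tet2 the least abundant of the 10 transcripts in both genotypes. The level used here is the normalised read count per kilobase of all annotated exon sequence of the gene, so transcripts that leave out long annotated exons are understated. Eed stood at 244 ± 113 per kilobase in WT and 265 ± 8.23 in Mcph1-/- (SD, n = 3), which placed it between the 67.0th and 81.8th percentile of genes in its libraries. Tet2 stood at 5.11 ± 5.52 and 2.22 ± 3.35, between the 3.59th and 20.1th percentile. Tet3 came next to last at 14.0 ± 6.80 and 11.9 ± 5.50.

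The other 7 genes lay between these. In WT the order from the top was Eed, Ezh1 (82.5), Dnmt3b (81.1), Ezh2 (73.6), Dnmt1 (66.0), Dnmt3a (42.5), Suz12 (29.1), Uhrf1 (28.5), Tet3 and Tet2, in mean normalised reads per kilobase, and no 2 neighbours in this order were separated beyond the range of their libraries. In Mcph1-/- it was Eed, Dnmt1 (70.2), Uhrf1 (55.7), Ezh2 (54.6), Ezh1 (50.3), Dnmt3b (47.1), Suz12 (41.2), Dnmt3a (35.7), Tet3 and Tet2. There the libraries of Eed and Dnmt1 did not overlap, nor did those of Dnmt3a and Tet3, and the other neighbours overlapped. With the length of the longest annotated transcript in place of all exons, a choice made after the data were seen, Ezh2 moved to the second place in both genotypes (176 in WT and 131 in Mcph1-/-), while Eed, Tet3 and Tet2 kept their places.

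**Figure D3:**
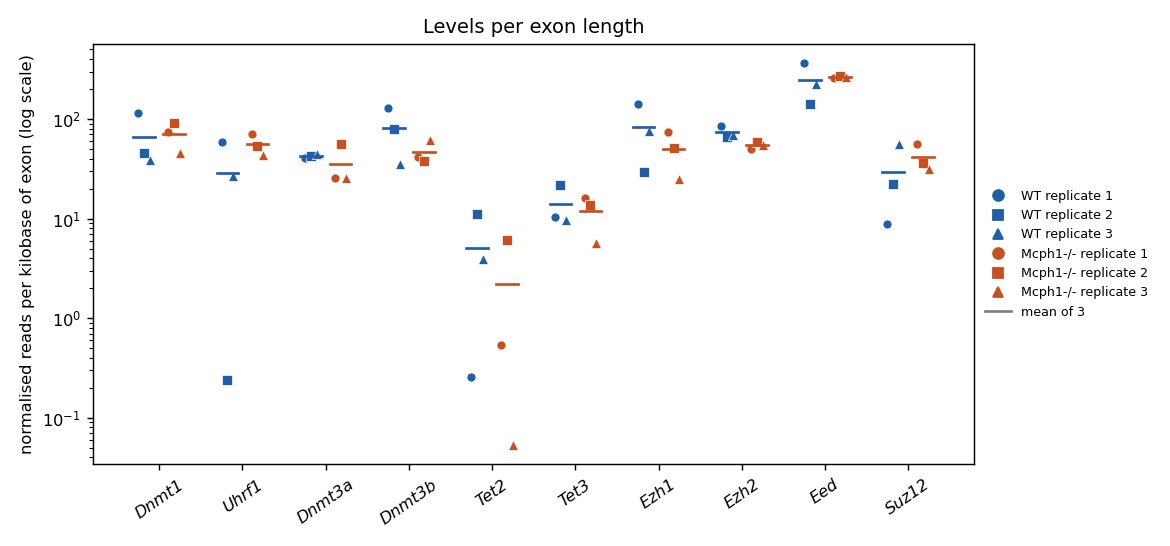
Normalised reads per kilobase of exon (log axis) for the same genes and libraries, with bars for means of 3. Eed is at the top in every library (141 to 365 in WT, 256 to 273 in Mcph1-/-), and the TET genes lie low in every library, as do Uhrf1 in WT replicate 2 and Suz12 in WT replicate 1.

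How much the libraries of a genotype differed varied from gene to gene. The chi-square of the reads per degree of freedom, which is near 1 where only counting error acts, had a median over tested genes of 79.6 in WT and 56.9 in Mcph1-/-. Ezh2 was steadier than most genes, with 8.28 in WT and 3.02 in Mcph1-/-, and 91.8% of tested genes exceeded its WT value. Dnmt3a was that steady in WT (1.73) but not in Mcph1-/- (162), and Eed in Mcph1-/- (1.13) but not in WT (189). Ezh1 had the largest value of the 10 in WT, 280.1. At an equal relative spread this chi-square grows with read number. It therefore does not rank genes by coefficient of variation, which was largest for Tet2. For 8 of the 10 genes the chi-square was lower in Mcph1-/- than in WT, as it was for 59.4% of tested genes. WT replicate 1 held the highest value of the 6 libraries for 5 genes and Mcph1-/- replicate 3 the lowest for 4, so that the 10 genes together took 0.0645% of reads in WT replicate 1 and 0.0364% in Mcph1-/- replicate 3, with 0.0380% to 0.0507% in the others.

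Related genes of DNA methylation did not pass by limma either. Of 24 partners in the list (readers, cofactors and other writers), 21 were tested and 0 passed over all genes by limma in either direction; 2 had an unadjusted limma p under 0.05, where 7.71% of tested genes did. Uhrf2, the relative of Uhrf1, had a normalised read count of 154, 220.5 and 72.9 in WT and 744, 596 and 379 in Mcph1-/-, higher in each Mcph1-/- library, and the log2 fold change was 2.02 (SE 0.63; limma adjusted p = 0.617, DESeq2 adjusted p = 0.036). Zbtb4, a zinc finger reader of methylated DNA, was read at 210.4, 304 and 49.6 in WT and 21.9, 24.6 and 0 in Mcph1-/- (log2 fold change -4.15, SE 1.79; limma adjusted p = 0.646). In the library with 0 reads up to 3 reads could have been missed, worth 2.68. The Zbtb4 estimate was -2.61 without that library, Mcph1-/- replicate 3, and -2.53 with a pseudocount of 16. Smchd1, a chromatin protein of X inactivation and imprinting, had 0.76 (SE 0.38). In all, 15 of the 21 estimates were higher, with a median of 0.25 against 0.08 over all tested genes. DESeq2, by which Uhrf2 passed, called 238 of 10846 tested genes, where limma called 4.

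Enzymes of methyl donor supply (13 of 14 tested) had 8 higher and 5 lower estimates, a median of 0.14 and 0 past the threshold. Where 7.71% of tested genes had an unadjusted limma p under 0.05, 2 of these 13 did. One of them was Shmt2, the mitochondrial serine hydroxymethyltransferase (423, 859 and 292 in WT, 870.3, 934 and 1287 in Mcph1-/-; log2 fold change 1.10, SE 0.44; limma adjusted p = 0.638). The Shmt2 libraries did not overlap between genotypes, which 7.4% of tested genes showed in the upward direction.

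Polycomb partners showed no common direction. Of 7 tested accessory PRC2 genes 3 were higher and 4 lower (median -0.08), with 0 past the threshold and 0 at an unadjusted limma p under 0.05. Jarid2, which guides PRC2 to chromatin, had the log2 fold change -1.06 (SE 0.92), which was -0.11 without Mcph1-/- replicate 2. Of 19 tested PRC1 genes 8 were higher and 11 lower (median -0.26), again with 0 by either measure. L3mbtl2, a subunit of a variant PRC1, read 47.7, 188 and 121 in WT and 251, 245 and 402 in Mcph1-/- (1.49, SE 0.80), and Yaf2, a subunit of variant PRC1, 580.2, 780 and 616 against 327, 577 and 514 (-0.51, SE 0.38). Cbx6, a chromodomain subunit, had -1.57 (SE 0.69). Of 7 tested genes of opposing enzymes and ASXL partners 2 were higher and 5 lower, with 0 past the threshold and 0 at an unadjusted p under 0.05. Kdm6a, a demethylase that removes the PRC2 mark, read 231, 293 and 168 in WT and 34.7, 152 and 26.8 in Mcph1-/- (-2.08, SE 1.04; limma adjusted p = 0.662).

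Loci that these systems are known to silence were sparse in the table, and those present did not pass. Of 25 imprinted genes 10 have values here and 9 were tested. Their median log2 fold change was -0.62, with 3 estimates higher and 6 lower. Ndn, an imprinted gene of the MAGE family, read 582, 1033 and 895 in WT and 771, 166 and 176 in Mcph1-/-, the 1 member with an unadjusted limma p under 0.05 (-1.52, SE 0.64; adjusted p = 0.643). Impact, a regulator of translation, read 247, 311 and 341 in WT and 890.3, 493 and 379 in Mcph1-/- (0.89, SE 0.47). Of 12 genes listed as Polycomb-silenced in adult blood cells 4 were tested, and the others are not analysed here, among them Cdkn2a. Hmga2, a chromatin protein of fetal stem cells, read 451, 389 and 439 in WT and 255, 290.4 and 309 in Mcph1-/-, lower in each Mcph1-/- library (-0.58, SE 0.43; limma adjusted p = 0.726). Igf2bp3, an RNA-binding protein of fetal cells, was read at 0, 6.18 and 0 in WT and at 13.7, 10.7 and 60.7 in Mcph1-/- (limma adjusted p = 0.662). No imprinted or Polycomb-silenced gene passed over all genes by limma. Over all tested genes 7.71% had an unadjusted limma p under 0.05.

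**Figure D4:**
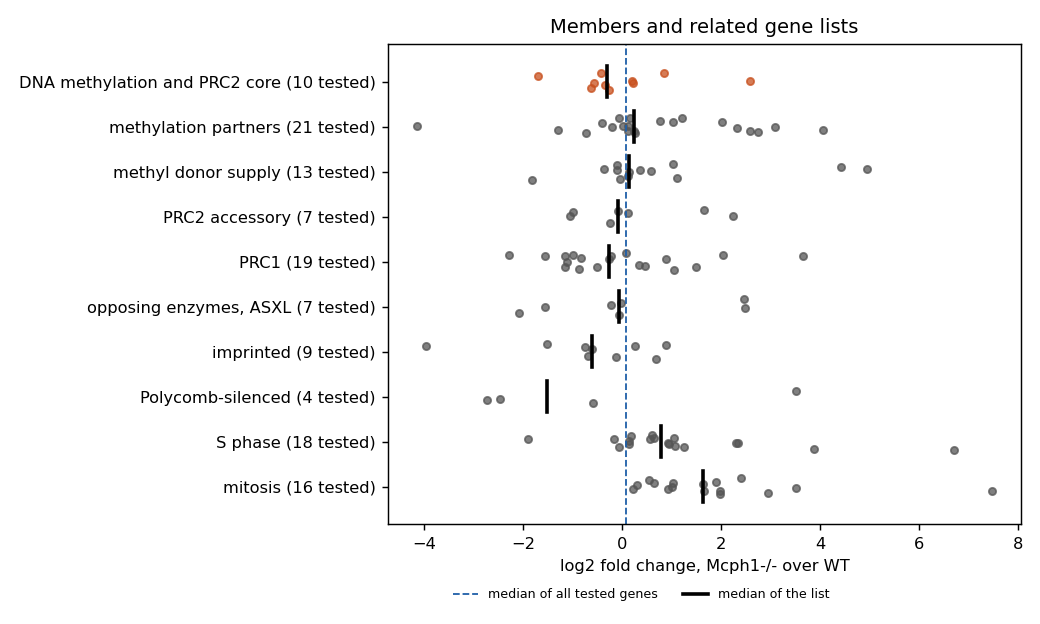
Log2 fold change (Mcph1-/- over WT) of every tested gene in the set and in related lists. Points are genes (spread vertically for legibility), black bars are list medians and the dashed line is the median of all tested genes (0.08). The set itself (median -0.31) straddles 0, while the S phase (0.78) and mitosis (1.64) lists lie to the right.

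Markers of dividing cells had mostly higher estimates in Mcph1-/-. The 18 listed S phase genes took 0.0984% to 0.121% of reads in WT and 0.154% to 0.198% in Mcph1-/-, with 15 of 18 estimates higher and a median log2 fold change of 0.78. The 16 listed mitosis genes took 0.0586% to 0.0835% and 0.160% to 0.183%, with 16 of 16 higher and a median of 1.64. None of these genes passed by limma over all genes, and 4 and 7 had an unadjusted limma p under 0.05, where 7.71% of tested genes did. Of all tested genes 53.8% had higher estimates, with a median of 0.08. Mcm6 of the replicative helicase read 1251, 1100.3 and 1055 in WT and 2159, 2116 and 2790.1 in Mcph1-/- (log2 fold change 1.04, SE 0.22; limma adjusted p = 0.435). Beside these, the log2 fold changes of the 4 members with an E2F-type match were 0.21 (Dnmt1), 2.59 (Uhrf1), -0.42 (Ezh2) and 0.84 (Suz12), and the difference between them and the S phase list was not tested. The part of cell division in the values of the 10 genes was not tested.

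Among markers of other cell types were the only 4 genes that limma called. The 7 neutrophil markers with values took 0.673% to 0.774% of reads in WT and 0.0381% to 0.221% in Mcph1-/-, and the 12 erythroid ones 0.0548% to 0.257% and 0.371% to 0.471%. Of the 4, S100a8, S100a9 and Ngp are neutrophil markers and were lower, and Car1 is erythroid and was higher. Without 1 library at a time only S100a8 passed in each of the 6 fits. The limma adjusted p of Ngp rose to 0.115 or more without any 1 of the WT libraries, and that of S100a9 to 0.129 or more without any 1 of them or Mcph1-/- replicate 1. That of Car1 rose to 0.0846 or more without any 1 library other than WT replicate 3. Of the 7 neutrophil markers 6 had lower and 1 higher estimates. Lower in each Mcph1-/- library than in any WT library were 6.8% of tested genes and 4 of the 7. The others overlapped: Prtn3 (log2 fold change -0.37, SE 0.42), Elane (-1.58, SE 3.74) and Mpo (1.45, SE 3.61). Most of the summed neutrophil count of Mcph1-/- replicate 3, 18724, came from Elane (8095), Prtn3 (5459) and Mpo (4856).

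The erythroid markers did not share a direction, with 8 of 12 estimates higher and 4 lower in Mcph1-/- (4 and 2 at an unadjusted limma p under 0.05). Of the 12, 5 were higher in each Mcph1-/- library than in any WT library, and 3 lower, where 7.4% and 6.8% of tested genes were. An unadjusted limma p under 0.05, in either direction, was found for 7.71% of tested genes. Most of the summed normalised read count of the erythroid markers in Mcph1-/-, 31792 to 40074, came from Car1, a carbonic anhydrase. Car1 read 1628, 1977 and 4566 in WT and 30038, 23716 and 31845 in Mcph1-/-. Klf1 read 683, 200 and 1017 in WT and 2997, 2883 and 2394 in Mcph1-/- (log2 fold change 2.40, SE 0.54; limma adjusted p = 0.506). Blvrb (0.92, SE 0.19) and Gata1 (5.11, SE 1.81) were also higher in each Mcph1-/- library. The alpha globin gene Hba-a1 read 581, 251 and 8516 in WT and 185, 55.0 and 101 in Mcph1-/-, lower in each Mcph1-/- library and highest in WT replicate 3 (log2 fold change -3.40, SE 1.21; limma adjusted p = 0.626). Its near-identical copy Hba-a2 had -3.27 (SE 1.79), and reads of the pair may be split between them. The beta globin gene Hbb-bs had -5.03 (SE 2.10; limma adjusted p = 0.642), while Hbb-bt, another beta globin gene, had 0.14 (SE 1.45) with overlapping libraries. At 0 reads were Elane in Mcph1-/- replicate 2 among the neutrophil markers, and, among others, Gata1, Epor, Tfrc and Hbb-bs in 1 or 2 libraries each among the erythroid ones. The monocyte markers with values, 2 of 8, took 0.0868% to 0.141% of reads in WT and 0.0510% to 0.0555% in Mcph1-/-. Nearly all of this was Lyz2, a lysozyme gene that neutrophils also express, which read 10866, 7454 and 12241 in WT and 4399.7, 4628 and 4430.2 in Mcph1-/-, lower in each Mcph1-/- library (log2 fold change -1.15, SE 0.20; limma adjusted p = 0.320). Of 10 lymphocyte markers 3 have values and of 7 endothelial and stromal markers 1. Their part in the values of the 10 genes was not tested.

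All 15 stem cell markers had values, and 14 of 15 were read in every library. They took 0.229% to 0.274% of reads in WT and 0.184% to 0.205% in Mcph1-/-, and 10 of 15 estimates were lower. None passed the threshold and 3 had an unadjusted limma p under 0.05, where 7.71% of tested genes did. Slamf1, which encodes the sorted antigen CD150, had 0 reads in WT replicate 1 and 1 in Mcph1-/- replicate 3. Cd34, whose product the sort excludes, read 201 to 569 over the 6 libraries. Cd48, whose product many progenitors carry and on which the cells were not sorted, read 2.17, 119.5 and 101 in WT and 296, 1153 and 514 in Mcph1-/-, higher in each Mcph1-/- library (log2 fold change 4.05, SE 1.48; limma adjusted p = 0.626). Mcph1 itself was read in every library, at 34.4 to 341 in WT and 37.7 to 428 in Mcph1-/-, so the genotype could not be checked from these counts and each direction rests on the labels. The libraries held 8102605 to 10455908 recovered reads, more in each Mcph1-/- library than in any WT library. Detected genes also numbered more in each Mcph1-/- library, 10516 to 10777, than in any WT library, 10209 to 10335.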

How the data were processed

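Smart-seq2, which copies whole transcripts from very small inputs, was used on 200 sorted cells per library, and pairs of 150-bp reads were sequenced (labels' protocols). Trim Galore 0.6.6, HISAT2, featureCounts, DESeq2 and build mm10 appear in the submitters' processing notes, without role or order. The authors deposited a signal per gene and library, here called normalised read count: gene reads over a size factor of the library. The values themselves show this, since 100% are whole multiples of what 1 read is worth (tolerance 0.001 reads), and whole reads were recovered from them. All listed genes were read in at least 4 of 6 libraries, so a gene read in 1 genotype only would not be listed. Reads carry no molecular identifiers, so intervals and floors (3 reads, worth 2.46 to 3.25) cover counting error only.

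Genes with a mean of at least 10 (10846) were tested with limma 3.58.1 (trend) on log2(value + 1). The model held genotype alone, and a Benjamini-Hochberg adjusted p under 0.05 was called. The pseudocount understates changes of low genes, and a library near 0 lowers its group's mean log value, so fold changes can exceed the ratio of means. edgeR 4.0.16 (quasi-likelihood), DESeq2 1.42.0 and limma-voom were run on the recovered reads as alternatives, beside other filters, a larger pseudocount, total count scaling, a replicate block and fits without each library. The scripts were tested on simulated reads with large set changes, which does not measure their power for smaller ones. Positions and exon lengths come from GENCODE M21 (mm10), which gave lengths for 96.2% of identifiers, and promoter windows from RefSeq (GRCm38.p6). Named genes are the 10 members, up to 4 genes with the smallest p of each related list, up to 3 of the S phase and mitosis lists, markers that passed or bear on the sort, and Mcph1. Gata1, Klf1, Blvrb, Epor, Tfrc, Hba-a1, Hba-a2, Hbb-bs, Hbb-bt, Elane, Mpo, Prtn3, Lyz2 and Cd48 were named after values were seen. Some genes that the rule names are left out here. The members and lists were chosen with earlier results of these data known.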

Additional observations from a re-analysis of the deposited data

How the results depend on the processing

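The 14 alternative analyses gave 140 estimates for the 10 genes, of which 135 kept their direction and 0 passed the threshold. The 5 that turned all came from leaving out 1 library, where Dnmt1 ranged from -0.091 to 0.69 (log2), Tet3 from -0.55 to 0.20 and Eed from -0.12 to 0.56. Turns among other named genes also came from leaving out 1 library: Mcph1 ranged from -0.58 to 1.34, Lcor from -0.31 to 3.58, Aebp2 from -2.28 to 0.084, Asxl1 from -0.39 to 4.16 and Bap1 from -0.42 to 4.49. Over all genes limma called 4 (1 higher, 3 lower). edgeR called 2 (0 higher), limma-voom 1 (0 lower) and DESeq2 238 (120 higher, 118 lower), and the cause was not tested. Leaving out 1 library gave 1 to 4 calls, with 0 to 2 higher and 1 to 4 lower; fewer samples enter those fits, with 1 called without WT replicate 1, 1 without WT replicate 2 and 2 without Mcph1-/- replicate 1. With the replicate number as a block 3 genes were called and 0 of the 10 members. Same-numbered libraries did not deviate together (r = -0.01, 0.02 and -0.03 across genes, and not each library correlated best with its own number). With 3 libraries per genotype, these values cannot show whether same-numbered libraries shared more than a number. The 95% intervals of the members ran from -0.62 to 1.07 for Eed, the narrowest, to -6.56 to 3.16 for Tet2, the widest.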
